A study of Rattus norvegicus with 8 samples.

Results

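Gene expression in dorsal root ganglia (DRGs) of male rats with chronic constriction injury (CCI) was compared with that of naïve males in 4 RNA-seq libraries, 2 a group, out of 8 in the series. The members were chosen here by their labels as male, not by any measured expression value. The study itself left out animals whose paw withdrawal threshold fell too little after CCI, and a naïve animal that responded at an unusually low threshold. Each library held the pooled ipsilateral L4 to L6 DRGs of 1 adult, gonadally intact Sprague-Dawley rat. In CCI, 4 loose silk ligatures are tied around the sciatic nerve, and the DRGs were taken on day 14. The naïve rats had no operation, so the skin and muscle incision and the nerve injury cannot be told apart, and the labels name no transgene or drug.

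DRGs hold the cell bodies of primary sensory neurons, each wrapped by satellite glia, with their axons ensheathed by Schwann cells. After an injury to the peripheral axon, these neurons are known to switch on transcription factors such as Atf3 and a set of growth and peptide genes, while Schwann cells along the injured nerve lose their myelin program. Ion channels, peptides and receptors made in these neurons set how easily they fire and what they release in the spinal cord, which is why the tissue is studied in neuropathic pain. In such bulk samples, fewer cells of a type and less RNA per cell cannot be told apart.

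The libraries held 49865883 and 51107282 counts in the naïve rats and 60818457 and 49963782 in the CCI rats. Expression is given as CPM, the counts of a gene relative to the total of its library, scaled by TMM to allow for differences in RNA composition. CPM are not scaled to gene length, so they compare libraries and not genes. Across the 16685 genes tested, log2 CPM correlated with r = 0.972 between the naïve rats and 0.979 between the CCI rats, and both pairs differed by more than counting noise. The biological coefficient of variation was 21.6%. The markers with a symbol of neurons (Nefh, Uchl1), Schwann cells (Mbp, Prx, Sox10) and satellite glia (Fabp7) were all above 40 CPM in every library, which fits the labelled tissue. The naïve library numbered 2 stood apart in blood genes. The summed level of 8 red cell genes was 139.7 and 1556 CPM in the naïve rats and 279 and 250.2 CPM in the CCI rats. Skeletal muscle genes differed between the groups, as described with the muscle genes.

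Atf3, Vip, Gal, Stac2 and Reg3b, genes known from injured sensory neurons, rose 5.89- to 50.3-fold, and myelin genes, nuclear and splicing transcripts and collagens fell. Of 16685 genes tested with edgeR's quasi-likelihood method, 1525 (9.14%) were upregulated in CCI males and 2144 (12.8%) were downregulated, 22.0% in all. Genes were called at an adjusted p (Benjamini-Hochberg) under 0.05 with a log2 fold change beyond 0.5 in either direction. The called genes had a median absolute log2 fold change of 0.69 when up and 0.88 when down, and changes beyond 2-fold were seen in 297 upregulated and 839 downregulated genes. The upregulated genes held 19.5% of CPM in the naïve rats and 28.8% in the CCI rats, whereas the downregulated genes went from 13.4% to 6.37%. The median log2 fold change of all genes tested was -0.01. With 2 rats a side, an exact permutation test of a single gene could not go below p = 0.333 (two-sided), so every call rests on a spread shared across genes. Naïve and CCI values did not overlap in 73.9% of all genes, so separation alone says little about a gene.

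Most of these calls also held when the replicate number was fitted as a block. Each number occurs once in each group, so the block hardly moved the fold changes. It lowered the common dispersion from 0.0465 to 0.00606, so most calls were likely to be kept and their retention is weak evidence of robustness. Of the upregulated genes, 1523 of 1525 were called in both fits (9.13% of all genes tested), and of the downregulated genes 2140 of 2144 (12.8%). The block fit by itself called 1797 genes up (10.8%) and 2681 down (16.1%). In DESeq2 with the block, 1473 genes were up and 1797 down. Leaving out 1 library mattered more. The upregulated count was 1090 without naïve replicate 1, 1659 without naïve replicate 2, 968 without CCI replicate 1 and 1119 without CCI replicate 2. The downregulated count was 1228, 2023, 1003 and 1060 in the same order. In every one of these 4 fits as well as in the full one, 757 genes were up (4.54% of those tested) and 780 down (4.67%). In the fits without 1 library, the lone rat of a group was assumed to vary like the rats of the other group.

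**Figure D1:**
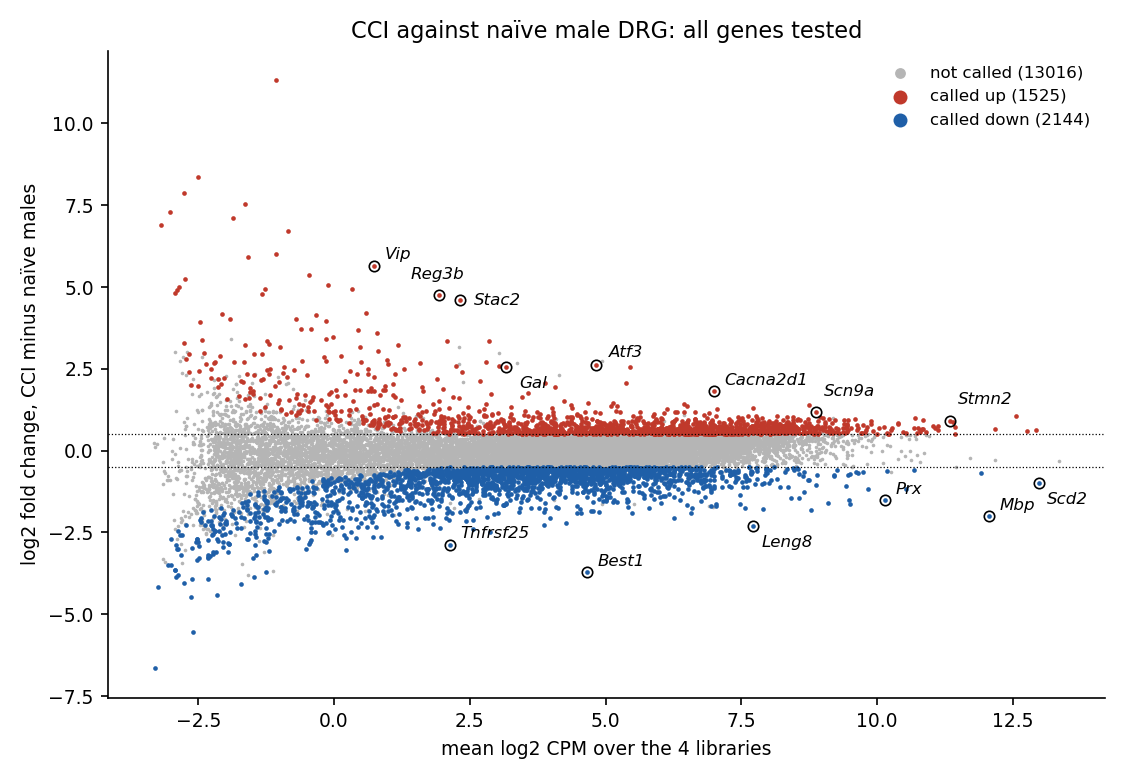
Log2 fold change of CCI against naïve males (vertical axis) against mean log2 CPM over the 4 libraries (horizontal axis) for the 16685 genes tested, with the 1525 genes called up in red, the 2144 called down in blue and dotted lines at log2 fold changes of -0.5 and 0.5. Circled genes are described in the text. Among them, Vip, Reg3b and Stac2 lie highest, and Mbp and Scd2, with high counts, lie at the lower right. The largest called rise, a log2 fold change of 11.3, was in a gene not circled.

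Gene symbols were at hand for 1958 of the genes tested, and these came from lists the study had drawn up largely on these libraries. Of them, 407 (20.8%) were called up and 800 (40.9%) down, 61.6% in all, and these 1207 calls held with the block. With each library left out in turn, 269 of the 407 and 487 of the 800 held in all 4 fits. Counts of named genes in any list below are therefore not independent evidence of its direction. They are to be read against the 20.8% up and 40.9% down among all genes with a symbol. The shares over all genes tested were 9.14% and 12.8%. Some lists lost most of their members. A symbol was at hand for 6 of 46 G protein-coupled receptors, 5 of 48 axon guidance genes and 14 of 66 potassium channel genes. Another 1118 upregulated and 1344 downregulated genes had no symbol here. Of the unnamed genes, ENSRNOG00000020560 was at 0.785 and 0.766 CPM in the naïve rats and 4.5 and 5.33 CPM in the CCI rats, while ENSRNOG00000021242 was at 17.3 and 10.1 CPM in the naïve rats and 2.54 and 2.68 CPM in the CCI rats.

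Genes of the injury and regeneration program rose together, led by Atf3. This transcription factor, a standard marker of axotomized neurons, was at 11.8 and 11.2 CPM in the naïve rats and 68.3 and 71.8 CPM in the CCI rats. The groups were far apart and the rats of each nearly equal, with a log2 fold change (± SE) of 2.61 ± 0.07. In edgeR's test the adjusted p was 0.00331, or 9.62e-14 with the block. Such small values with the block rest on its lower dispersion shared across genes and are not stronger evidence from so few rats. The other named member of the list of injury transcription factors, Cebpd, had a log2 fold change of -0.46 (adjusted p = 0.0171) and missed the size threshold. Among 13 axon regeneration genes with a symbol, 12 were upregulated and none was downregulated, with a median log2 fold change of 1.07. All 12 calls held with the block and with any 1 library left out. Stmn2, a regulator of microtubules in growth cones, was at 1799.9 and 1982 CPM in the naïve rats and 3448 and 3654 CPM in the CCI rats. Gap43, a growth cone protein, was at 208 and 240.4 CPM in the naïve rats and 413 and 442 CPM in the CCI rats. Both were about 1.9-fold higher after CCI (1.88 and 1.91), with no overlap between the groups. Ecel1, a membrane metalloprotease induced in injured neurons, was at 1.26 and 1.08 CPM in the naïve rats and 7.94 and 7.01 CPM in the CCI rats, a 6.36-fold change. Ankrd1, a nuclear ankyrin repeat protein, was at 0.364 and 0.299 CPM in the naïve rats and 5.41 and 6.78 CPM in the CCI rats, with a log2 fold change of 4.19. Tubb6, a beta-tubulin, was the member that was not called (log2 fold change 0.26).

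Immediate early genes are switched on by neurons and Schwann cells within minutes of a stimulus. Of 17 listed, 4 had a symbol, and these 4 did not rise with this program. Jun was not among them, and the paper describes its own results as matching an earlier report of Jun upregulation in CCI males. Of 4 with a symbol, 2 were downregulated and none was upregulated, beside 40.9% and 20.8% of all genes with a symbol. Egr3 was at 14.6 and 13.1 CPM in the naïve rats and 6.62 and 6.3 CPM in the CCI rats, a fall that held in every fit without 1 library. Egr2, which also drives myelin genes in Schwann cells, was at 40.9 and 32.4 CPM in the naïve rats and 24.9 and 23.4 CPM in the CCI rats, and its call was lost without naïve replicate 1 (log2 fold change -0.41), CCI replicate 1 (-0.64) or CCI replicate 2 (-0.55). Fos, a subunit of the AP-1 factor, was at 6.95 and 7.11 CPM in the naïve rats and 6.48 and 4.75 CPM in the CCI rats and was not called (adjusted p = 0.219). Nr4a1 was at 52.2 and 44.5 CPM in the naïve rats and 32.6 and 36.2 CPM in the CCI rats and lay just short of the size threshold, with a log2 fold change of -0.49. Without naïve replicate 2, Nr4a1 was called down (log2 fold change -0.61).

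Neuropeptide genes had the highest median change of the neuronal lists. Of 14 with a symbol, 12 were upregulated, none fell, and the median log2 fold change was 1.20. With naïve 1, naïve 2, CCI 1 or CCI 2 left out, 11, 13, 8 and 10 members were called. Vip, the vasoactive intestinal peptide, was nearly absent from the naïve libraries at 0.268 and 0.168 CPM and reached 11.5 and 10.6 CPM after CCI, with a log2 fold change of 5.65 ± 0.26 (adjusted p = 0.00569). Gal, the precursor of galanin, was at 3.56 and 3.83 CPM in the naïve rats and 21.6 and 21.9 CPM in the CCI rats, a 5.89-fold change. Crh, the precursor of corticotropin-releasing hormone, was at 0.0766 and 0.112 CPM in the naïve rats and 4.03 and 3.89 CPM in the CCI rats. It was thus at a few counts in naïve rats, and its log2 fold change of 5.36 carries that imprecision.

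Peptide genes with many counts in naïve rats changed less. Calca, which encodes the peptide CGRP, was at 605 and 791 CPM in the naïve rats and 1321 and 1291 CPM in the CCI rats, and Tac1, the precursor of substance P, was at 179 and 216 CPM in the naïve rats and 417 and 401 CPM in the CCI rats. Tac1 held in every fit without 1 library. The Calca call was lost without CCI replicate 1 (log2 fold change 0.89, adjusted p = 0.0608 by edgeR) or CCI replicate 2 (0.93, 0.0511), although the fold hardly moved. Bdnf, a neurotrophin released at central terminals, was at 22 and 24.6 CPM in the naïve rats and 62.5 and 56.8 CPM in the CCI rats, and Adcyap1, the precursor of PACAP, was at 53.2 and 59.6 CPM in the naïve rats and 142 and 146 CPM in the CCI rats. Vgf and Scg2 encode granin-family precursors of secreted peptides. Vgf was at 29.1 and 13.7 CPM in the naïve rats and 114 and 65.2 CPM in the CCI rats, with the rats numbered 1 above the rats numbered 2 in both groups, and its adjusted p was 0.0226 without the block and 5.04e-12 with it. The Vgf call was lost without CCI replicate 1 (log2 fold change 1.62). Scg2 was at 205 and 246 CPM in the naïve rats and 476 and 449 CPM in the CCI rats. The members not called were Sst and Nmb, with log2 fold changes of 0.31 and 0.40, and Nmb was called up without naïve replicate 2 (0.58).

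Of 1958 tested genes with a symbol, 1392 matched exactly 1 promoter in RefSeq's rat assembly GRCr8. The full cAMP response element, TGACGTCA, reads the same on both strands. It lay in the 250 bases before the annotated start of 1.59% of all 33469 promoters, of 4.23% of the 284 upregulated genes matched of 2.14% of the 560 downregulated genes and of 2.92% of the 548 matched genes not called, against 2.87% of all 1392. Vgf and Scg2 were among the 12 upregulated genes with it, and they are shown because they are related precursors that moved together. Reg3b, among the named genes of largest fold change, had a match to the STAT element TTCNNNGAA. That element was in 7.67% of all promoters, in 7.75% of the upregulated genes and in 6.39% of those not called. The AP-1 element TGANTCA was in 6.34% of all promoters in 6.34% of the upregulated genes and in 5.11% of those not called. The Scg2 window also holds a match to the STAT element, left in lower case. Neither of these elements shares letters with the CRE match in the windows below. A match describes letters only. Each run is written from 5′ to 3′ on the gene's strand and ends at the base before the start, and capitals mark the CRE in the first and second runs and the STAT element in the last.
Vgf (chr12:25277021-25277270, minus strand): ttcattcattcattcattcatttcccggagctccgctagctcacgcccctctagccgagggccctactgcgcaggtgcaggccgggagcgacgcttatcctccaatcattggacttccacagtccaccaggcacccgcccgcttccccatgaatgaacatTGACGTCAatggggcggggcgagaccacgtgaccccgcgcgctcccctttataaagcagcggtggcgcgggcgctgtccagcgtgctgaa
Scg2 (chr9:88256867-88257116, minus strand): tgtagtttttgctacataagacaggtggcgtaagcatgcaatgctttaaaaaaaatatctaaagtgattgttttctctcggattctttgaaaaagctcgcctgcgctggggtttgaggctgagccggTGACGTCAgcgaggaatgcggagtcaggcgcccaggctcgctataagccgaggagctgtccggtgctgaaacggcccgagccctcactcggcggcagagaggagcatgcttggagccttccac
Reg3b (chr4:112419526-112419775, plus strand): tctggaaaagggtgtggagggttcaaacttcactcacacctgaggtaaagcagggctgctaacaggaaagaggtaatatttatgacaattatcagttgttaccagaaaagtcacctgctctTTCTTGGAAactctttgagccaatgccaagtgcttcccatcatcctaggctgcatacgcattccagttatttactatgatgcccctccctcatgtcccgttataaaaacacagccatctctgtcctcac
The CRE lay 90 to 83 bases before the start of Vgf and 123 to 116 bases before that of Scg2, and the STAT element lay 129 to 121 bases before the start of Reg3b.

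Most ion channel genes of sensory neurons that had a symbol rose as well. Of 22 listed calcium channel genes, 5 had a symbol and 4 were upregulated. These 4 encode accessory subunits (Cacna2d1, Cacna2d3, Cacnb4) and an adaptor (Stac2). The only member with a symbol that encodes a pore-forming subunit, Cacna1g, did not rise. That single gene does not speak for the others of its kind. The paper names Cacna1a, Cacna1b and Cacna1e among the genes upregulated in CCI males, and they are not among the 5. Stac2, an adaptor that tethers voltage-gated calcium channels, was at 0.938 and 1.05 CPM in the naïve rats and 23.5 and 24.3 CPM in the CCI rats, a 24.1-fold change with the smallest adjusted p among the genes named (0.00294). Cacna2d1, the α2δ-1 subunit that binds gabapentin, was at 62.2 and 74.2 CPM in the naïve rats and 248 and 233 CPM in the CCI rats. Cacna1g, a low-voltage-activated channel, had a log2 fold change of -0.56 with an adjusted p of 0.127 in edgeR's test and was not called, but with the replicate number as a block it was called down (adjusted p = 0.0442). Of 4 sodium channel genes, 3 were upregulated, each about 2-fold. Scn9a, which encodes Nav1.7, was at 287 and 335 CPM in the naïve rats and 718 and 686 CPM in the CCI rats, Scn8a was at 108 and 135 CPM in the naïve rats and 248 and 248 CPM in the CCI rats, and Scn1a was at 72 and 90.6 CPM in the naïve rats and 181 and 179 CPM in the CCI rats. Scn7a, an atypical sodium channel also found in Schwann cells, was at 1095 and 1076 CPM in the naïve rats and 1271 and 1196 CPM in the CCI rats and was not called. The calcium and sodium channel counts held with any 1 library left out.

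Potassium channel genes moved in the same direction but by less. All 14 had a log2 fold change above 0, with a median of 0.51, 7 were upregulated and none was downregulated. Kcnv1, a modulatory subunit, had the largest change among them, from 11.9 and 15.5 CPM in the naïve rats to 28.4 and 27.6 CPM in the CCI rats. Kcna2, the axonal Kv1.2 channel, was at 687 and 751 CPM in the naïve rats and 993 and 872 CPM in the CCI rats. Its log2 fold change of 0.37 was under the threshold (adjusted p = 0.0374). With naïve 1, naïve 2, CCI 1 or CCI 2 left out, 6, 8, 5 and 6 potassium channel genes were called.

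Among 10 TRP, P2X and HCN channels, 5 were upregulated and 1 was downregulated. Trpa1, the irritant receptor of nociceptors, was at 48.4 and 55.6 CPM in the naïve rats and 121 and 113 CPM in the CCI rats. P2rx3, an ATP receptor of the same neurons, was at 359 and 382 CPM in the naïve rats and 627 and 614 CPM in the CCI rats. P2rx7, an ATP receptor known from glia and macrophages, moved the other way, from 29.5 and 26.6 CPM to 15.6 and 16.9 CPM. Trpc5 was at 1.7 and 2.61 CPM in the naïve rats and 6.17 and 5.48 CPM in the CCI rats, and its call was lost without CCI replicate 1 (log2 fold change 1.35) or CCI replicate 2 (1.52). The number upregulated was 4, 5, 4 and 3 with naïve 1, naïve 2, CCI 1 or CCI 2 left out.

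Most receptors for transmitters that had a symbol rose as well. Of 15 ligand-gated receptor subunits, 12 were upregulated and none was downregulated, with a median log2 fold change of 0.81. At least 12 were called in each fit without 1 library. Gabra5, the α5 subunit of the GABA-A receptor, was at 8.59 and 8.46 CPM in the naïve rats and 33 and 33 CPM in the CCI rats, the tightest of the large changes (1.95 ± 0.06). Glrb, the glycine receptor β subunit, was at 179 and 206 CPM in the naïve rats and 367 and 327 CPM in the CCI rats. Grik5, a kainate receptor subunit, was the member with a negative log2 fold change (-0.26, not called). Of 46 listed G protein-coupled receptors, 6 had a symbol, and 5 of these were upregulated. Oprm1, the mu opioid receptor, was at 13.2 and 16.2 CPM in the naïve rats and 31 and 28.8 CPM in the CCI rats, about double after CCI. Galr1, a receptor for galanin, was at 5.59 and 7.47 CPM in the naïve rats and 14.1 and 14.1 CPM in the CCI rats, and Gabbr2, a GABA-B receptor subunit, was at 167 and 191 CPM in the naïve rats and 281 and 272 CPM in the CCI rats. The Galr1 and Gabbr2 calls were lost without CCI replicate 1 (log2 fold changes 1.11 and 0.61), where 3 of the receptors were called.

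General neuronal transcripts with a symbol (7 of 29 listed) mostly rose too, those called by about 1.5-fold. Of 7 neuron markers, 5 were upregulated, with a median log2 fold change of 0.63, and their summed level was 16328 and 18721 CPM in the naïve rats and 26413 and 27381 CPM in the CCI rats. Nefm, a neurofilament subunit, was at 5944 and 6665 CPM in the naïve rats and 9569.7 and 9932 CPM in the CCI rats. Uchl1, a neuronal ubiquitin hydrolase, was at 1393 and 1486 CPM in the naïve rats and 2156 and 2441 CPM in the CCI rats. Nefh was at 3324 and 4093 CPM in the naïve rats and 5710.2 and 5902 CPM in the CCI rats. The markers not called were Pvalb and Slc17a7, with log2 fold changes of 0.06 and 0.42. The Nefm and Nefh calls were lost without CCI replicate 1 (log2 fold changes 0.66 and 0.68) or CCI replicate 2 (0.61 and 0.63), and the number of neuron markers called was 5, 5, 2 and 1 with naïve 1, naïve 2, CCI 1 or CCI 2 left out. Most of these general markers rose together with the channel and receptor genes, and their part in those results was not tested. Of 14 vesicle release genes, 6 were upregulated and 1 was downregulated. Cbln2, a synaptic organizer, was at 49 and 56.4 CPM in the naïve rats and 149.6 and 136 CPM in the CCI rats, and Syt4, a vesicle calcium sensor, was at 247 and 286 CPM in the naïve rats and 727 and 667 CPM in the CCI rats. Snap25, a core protein of vesicle fusion, was at 1186 and 1314 CPM in the naïve rats and 1725 and 1789 CPM in the CCI rats and missed the size threshold with a log2 fold change of 0.49. It was called up without naïve replicate 2 (log2 fold change 0.56). Unc13b, a priming factor, fell from 24.6 and 17.9 CPM to 12.6 and 11.4 CPM, a call lost without CCI replicate 1 (log2 fold change -0.88) or CCI replicate 2 (-0.75).

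**Figure D2:**
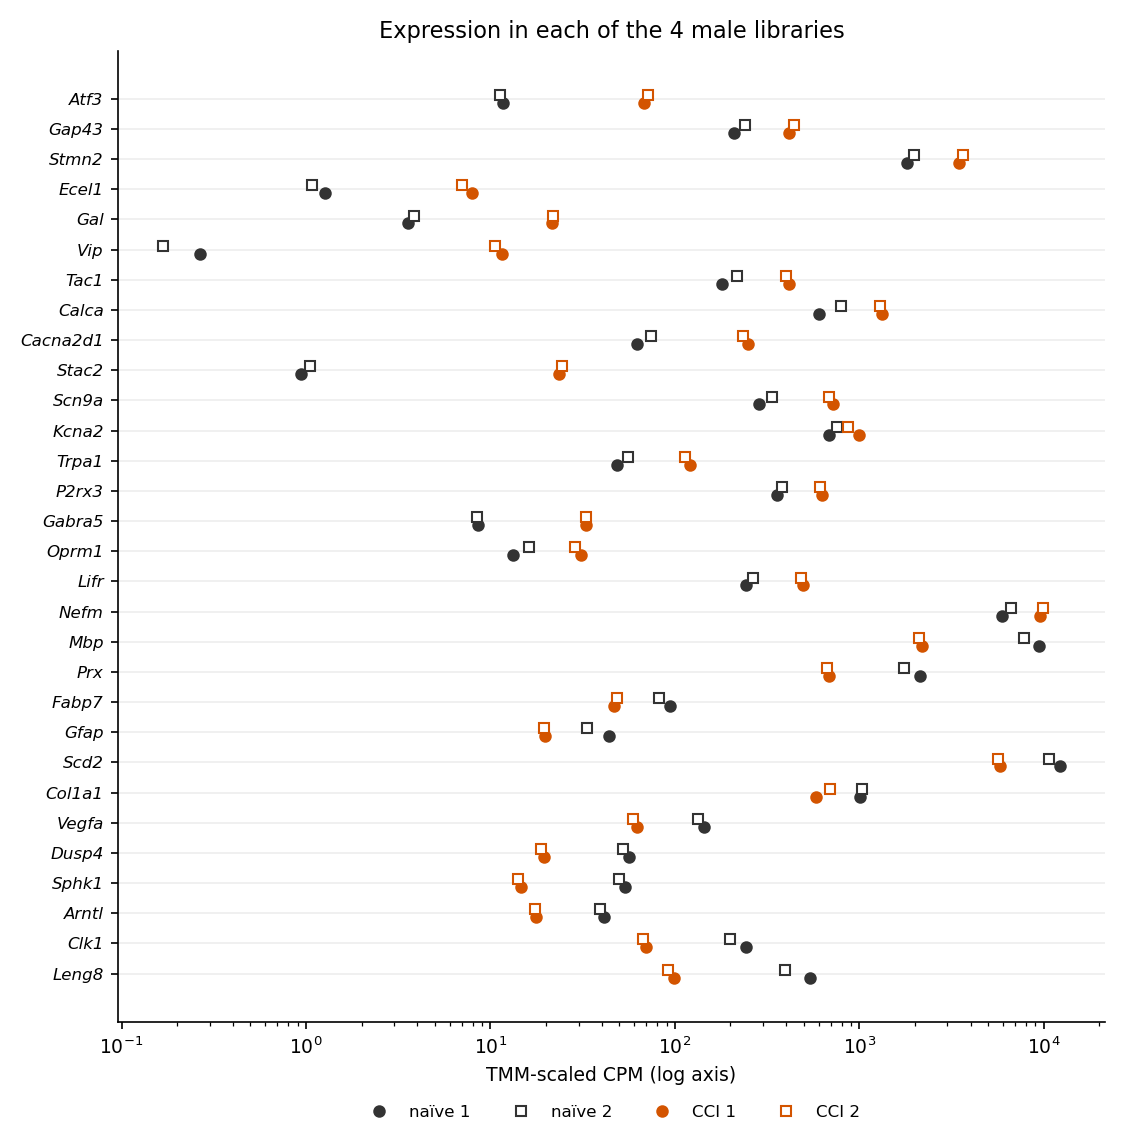
TMM-scaled CPM on a log axis for 30 genes described in the text (vertical axis) in each of the 4 libraries, with naïve rats in black, CCI rats in orange, filled circles for replicate 1 and open squares for replicate 2. No gene plotted has a CCI value between the naïve values. Kcna2 has the narrowest gap, and Vip and Stac2 the widest.

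Trophic genes moved in both directions. Of 8 trophic genes, 2 were upregulated and 5 downregulated. Lifr, a receptor subunit for LIF and CNTF, was at 241 and 264 CPM in the naïve rats and 494 and 482 CPM in the CCI rats, and Ngfr, the low-affinity neurotrophin receptor of neurons and Schwann cells, was at 478 and 582 CPM in the naïve rats and 916 and 949 CPM in the CCI rats. The Ngfr call was lost, right at the threshold, without CCI replicate 1 (log2 fold change 0.85). Vegfa, an angiogenic factor, was at 143 and 133 CPM in the naïve rats and 62.2 and 59.3 CPM in the CCI rats, and Igf1 was at 43.8 and 48.3 CPM in the naïve rats and 23.2 and 21.5 CPM in the CCI rats. Cntf, a factor that Schwann cells supply to neurons, was at 133 and 103 CPM in the naïve rats and 75.9 and 68 CPM in the CCI rats, a call lost without CCI replicate 1 (log2 fold change -0.79) or CCI replicate 2 (-0.63). The neuregulin receptors Erbb2 and Erbb3, on which Schwann cells depend, had log2 fold changes of -0.65 and -0.67. The Erbb2 call was lost without naïve replicate 1 (-0.63) or CCI replicate 1 (-0.56). With naïve 1, naïve 2, CCI 1 or CCI 2 left out, 4, 5, 3 and 4 trophic genes were downregulated. Axon guidance genes also moved both ways, with 2 of 5 up and 3 down in the full fit and in all 4 fits without 1 library. Plxna2 was at 118 and 148 CPM in the naïve rats and 331 and 330.4 CPM in the CCI rats and Robo2 at 142 and 172 CPM in the naïve rats and 313 and 312 CPM in the CCI rats, both guidance receptors of neurons. Plxnb3, a plexin of the B class, fell from 201 and 155 CPM to 55.3 and 51.1 CPM.

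Myelin genes fell together. Of 10 genes of myelinating Schwann cells, 9 were downregulated and none was upregulated, with a median log2 fold change of -1.32. Their summed level was 13791 and 11531 CPM in the naïve rats and 3726 and 3588 CPM in the CCI rats. Mbp, a structural protein of compact myelin, was at 9380.1 and 7846 CPM in the naïve rats and 2180.4 and 2095 CPM in the CCI rats, 4.03-fold lower after CCI with a log2 fold change of -2.01 ± 0.12 (adjusted p = 0.00569, 8.49e-12 with the block). Prx, which links the Schwann cell membrane to its cytoskeleton, was at 2122 and 1742 CPM in the naïve rats and 683 and 663 CPM in the CCI rats, and its partner Drp2 was at 1305 and 1109 CPM in the naïve rats and 437 and 409 CPM in the CCI rats. Mag, an adhesion protein next to the axon, was at 60.5 and 48.2 CPM in the naïve rats and 27.5 and 25.5 CPM in the CCI rats. Sox10, the lineage factor of Schwann cells and satellite glia, changed less, from 176 and 157 CPM to 98.2 and 98.2 CPM. Leaving out any 1 library left 8 or 9 of these genes downregulated.

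Glial genes outside the myelin program mostly fell, and by less. Their counts stand beside 40.9% called down among all genes with a symbol. Of 8 satellite glia genes, 5 were downregulated, with a median log2 fold change of -0.70, and with naïve 1, naïve 2, CCI 1 or CCI 2 left out 4, 5, 3 and 3 were called. Fabp7, a fatty acid binding protein of these cells, was at 94.1 and 81.7 CPM in the naïve rats and 46.5 and 48.6 CPM in the CCI rats. Ttyh1, a membrane protein of these glia, was at 550.4 and 493 CPM in the naïve rats and 313 and 298 CPM in the CCI rats. The satellite glia genes not called were Mt3, Ptprz1 and Hapln1, with log2 fold changes of -0.25, -0.17 and 0.16. Gfap, an intermediate filament best known for its rise in reactive glia, was at 43.7 and 33.2 CPM in the naïve rats and 19.8 and 19.6 CPM in the CCI rats, so that it was lower after CCI in these rats. The Gfap call was lost without CCI replicate 1 (log2 fold change -0.97, adjusted p = 0.0575 by edgeR) or CCI replicate 2 (-0.95, 0.0523). Of 5 genes listed for repair Schwann cells, 3 were downregulated, Gfap, Erbb3 and Runx2, and Ngfr was upregulated. With naïve 1, naïve 2, CCI 1 or CCI 2 left out, 2, 3, 1 and 1 of them were downregulated. Scd2, a fatty acid desaturase that glia use for myelin lipid, had the most counts of the genes named. It was at 12208 and 10658 CPM in the naïve rats and 5798 and 5658 CPM in the CCI rats, and its call was lost without CCI replicate 1 (log2 fold change -1.01, adjusted p = 0.0512 by edgeR). Fasn, the fatty acid synthase, was at 441 and 454 CPM in the naïve rats and 505 and 523 CPM in the CCI rats and was not called.

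Many collagen and other matrix genes fell. Of 28 matrix genes, 17 were downregulated and none was upregulated, with a median log2 fold change of -0.66, and 17, 18, 13 and 13 were called with naïve 1, naïve 2, CCI 1 or CCI 2 left out. Col27a1 showed the largest change, from 48 and 38.6 CPM to 12 and 11 CPM. Col1a1 and Col3a1 encode fibrillar collagens. Col1a1 was at 1008 and 1038 CPM in the naïve rats and 583 and 696 CPM in the CCI rats, a call lost without CCI replicate 1 (log2 fold change -0.55), and Col3a1 was at 1059 and 1085 CPM in the naïve rats and 674 and 690.0 CPM in the CCI rats. Col6a2 was at 167 and 164 CPM in the naïve rats and 75.8 and 73.8 CPM in the CCI rats, and Pxdn, a peroxidase that cross-links basement membrane, was at 118 and 110.0 CPM in the naïve rats and 45.7 and 44.7 CPM in the CCI rats. Fn1, fibronectin, was at 174 and 194 CPM in the naïve rats and 164 and 165 CPM in the CCI rats and was not called. Pdgfrb, a receptor of pericytes and fibroblasts, was at 102 and 87.5 CPM in the naïve rats and 49.7 and 46.1 CPM in the CCI rats.

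Splicing factors and transcripts known to be retained in the nucleus formed the largest list of falling genes. Of 30 with a symbol, 25 were downregulated and none was upregulated, with a median log2 fold change of -0.74. Their summed level was 8512 and 7214 CPM in the naïve rats and 4491 and 4197 CPM in the CCI rats, so naïve replicate 1 was the highest. Leng8, a component of a nuclear RNA export complex, was at 543 and 397 CPM in the naïve rats and 98.3 and 92.2 CPM in the CCI rats, 4.93-fold lower after CCI. Clk1, a kinase of SR splicing proteins, was at 244 and 198 CPM in the naïve rats and 69.9 and 67.1 CPM in the CCI rats, and Snrnp70, a protein of the U1 particle, was at 356 and 276 CPM in the naïve rats and 103 and 99.6 CPM in the CCI rats. Srrm2, a scaffold of nuclear speckles, was at 750.3 and 595 CPM in the naïve rats and 341 and 312 CPM in the CCI rats. Ddx5, an RNA helicase, was at 841 and 749.8 CPM in the naïve rats and 632 and 543 CPM in the CCI rats and was under the size threshold. It was called down without naïve replicate 2 (log2 fold change -0.52). With naïve 1, naïve 2, CCI 1 or CCI 2 left out, 21, 28, 21 and 18 were downregulated.

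**Figure D3:**
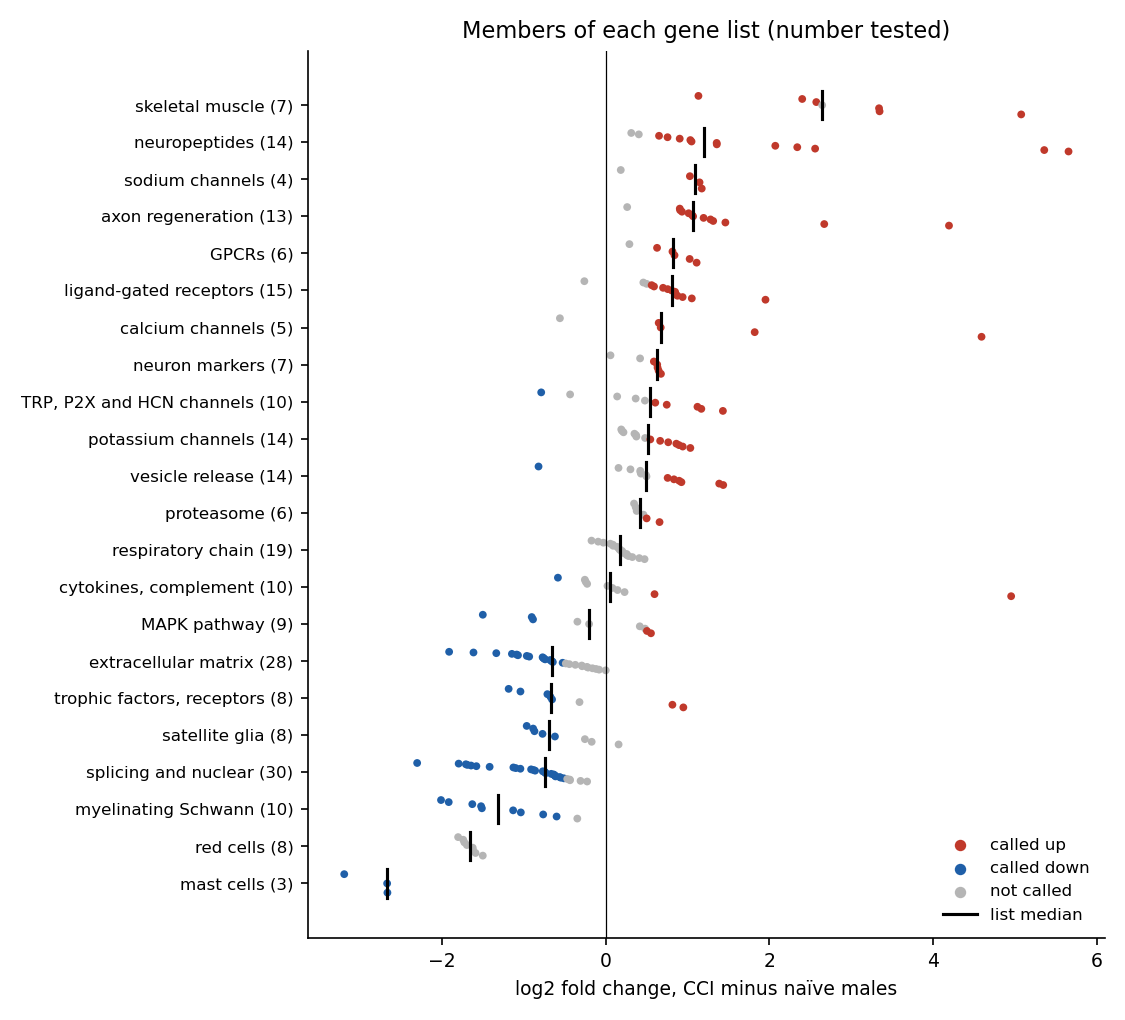
Log2 fold change of CCI against naïve males (horizontal axis) for each tested member of 22 gene lists (vertical axis, with the number tested), in red where called up, blue where called down and grey where not called, with a black bar at the list median. The medians of the neuronal lists lie to the right of 0 and those of the glial, matrix and splicing lists to the left. Single members of some of these lists lie on the other side. The 8 red cell genes lie left without a call.

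Signaling and clock genes were among those with the smallest p-values for a fall. Of 9 MAP kinase pathway genes, 2 were upregulated and 3 downregulated, with 1, 3, 2 and 2 upregulated when naïve 1, naïve 2, CCI 1 or CCI 2 was left out. These counts stand beside 20.8% up and 40.9% down among all genes with a symbol. Dusp4, a phosphatase that switches off MAP kinases, was at 56.4 and 52.1 CPM in the naïve rats and 19.6 and 18.7 CPM in the CCI rats, a 2.83-fold fall. Map4k4, an upstream kinase, was at 619 and 549 CPM in the naïve rats and 315 and 316 CPM in the CCI rats, whereas Mapk10, the neuronal JNK3, was at 187 and 203 CPM in the naïve rats and 284 and 289 CPM in the CCI rats. Sphk1, which makes sphingosine 1-phosphate, was at 53.9 and 49.6 CPM in the naïve rats and 14.7 and 14.1 CPM in the CCI rats. Arntl and Npas2, partner transcription factors of the activating arm of the circadian clock, were both lower after CCI. Arntl was at 41.2 and 39.4 CPM in the naïve rats and 17.6 and 17.3 CPM in the CCI rats and Npas2 at 6.89 and 6.24 CPM in the naïve rats and 1.26 and 1.23 CPM in the CCI rats, and both calls held with the block and without any 1 library. Dbp and Per3, clock output and feedback genes chosen after their values were seen, moved apart. Dbp was at 17.5 and 17.3 CPM in the naïve rats and 27.2 and 28.1 CPM in the CCI rats and was called up, and Per3 was at 37.8 and 33.1 CPM in the naïve rats and 23.1 and 22.8 CPM in the CCI rats and was called down, except without CCI replicate 1 (log2 fold change -0.63). The time of day of tissue collection was not given in the sources used here.

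Some further genes with the largest falls belong to no list. Tnfrsf25, a death-domain receptor best known from T cells, was at 14.1 and 9.62 CPM in the naïve rats and 1.44 and 1.8 CPM in the CCI rats, a 7.34-fold fall. Best1, a calcium-activated chloride channel, was at 144 and 103 CPM in the naïve rats and 17.1 and 1.55 CPM in the CCI rats, and the CCI rats differed from each other more than 10-fold. Its call was lost without naïve replicate 1 (log2 fold change -3.44) or naïve replicate 2 (-3.93). Ager, the receptor for glycated proteins, was at 6.45 and 4.74 CPM in the naïve rats and 1.12 and 1.09 CPM in the CCI rats. Dqx1, Plekhn1 and Prss53 had log2 fold changes of -2.37, -2.12 and -2.07. Among rising genes outside the lists, Reg3b, a secreted lectin of injured neurons, was at 0.9 and 0.56 CPM in the naïve rats and 20.4 and 18.8 CPM in the CCI rats, a 26.8-fold change, and Pde6b, a phosphodiesterase known from photoreceptors, was at 0.498 and 0.971 CPM in the naïve rats and 7.16 and 6.59 CPM in the CCI rats.

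Few genes of immune cells had a symbol. Of 10 cytokine and complement genes, 2 were upregulated and 1 was downregulated. Csf1, a growth factor for macrophages and microglia, was at 13.6 and 14.2 CPM in the naïve rats and 20.4 and 21.8 CPM in the CCI rats. Serpina3n, a protease inhibitor of the acute phase response, was at 0.249 and 0.168 CPM in the naïve rats and 6.21 and 6.82 CPM in the CCI rats, a log2 fold change of 4.95. C1s, a complement protease, was at 88.2 and 82.6 CPM in the naïve rats and 63.5 and 50.4 CPM in the CCI rats, and its call was lost without naïve replicate 1 (log2 fold change -0.53) or CCI replicate 2 (-0.42). Of 5 MHC genes, RT1-Da of class II was called up (46.3 and 52.8 against 69.2 and 80.2 CPM) and RT1-A2 of class I was called down (41.4 and 30.8 against 23.9 and 20.7 CPM), but neither call held in more than 2 of the 4 fits without 1 library. RT1-Da was lost without naïve replicate 1 (log2 fold change 0.51) or CCI replicate 2 (0.49), and RT1-A2 without naïve replicate 1 (-0.46), CCI replicate 1 (-0.79) or CCI replicate 2 (-0.59). The class I genes are near copies of each other, so their counts may be divided among them. Cd74, the class II invariant chain, was at 134 and 163 CPM in the naïve rats and 189 and 175 CPM in the CCI rats and was not called. The macrophage marker Cd163 was at 2.09 and 2.18 CPM in the naïve rats and 1.56 and 1.92 CPM in the CCI rats, and no call was made in the full fit for the 7 members of 5 lists with 1 or 2 genes each (macrophage, lymphocyte, neutrophil, interferon and endothelial genes). Without naïve replicate 1, Ngp was called down (log2 fold change -2.79) and the endothelial gene Plvap up (0.71). All 3 mast cell genes were downregulated, with Mcpt1l1 at 3.02 and 3.36 CPM in the naïve rats and 0.519 and 0.481 CPM in the CCI rats and Cpa3 at 1.28 and 1.64 CPM in the naïve rats and 0.207 and 0.251 CPM in the CCI rats, both low in every library, and 2 of the 3 calls held in every fit without 1 library.

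Transcripts of muscle and fat were higher in the CCI libraries. The defining markers fixed for muscle (Acta1, Ckm, Myh2) had no symbol and are not analysed here. Of 23 listed skeletal muscle genes, 7 had a symbol and 6 of these were upregulated. Their median log2 fold change was 2.64 and the largest was 5.07. The seventh, Tnni2, was called up with the replicate number as a block (adjusted p = 3.86e-07 in edgeR's test, against 0.0566 without it). The summed level of the 7 genes was 10.7 and 24 CPM in the naïve rats and 99.3 and 105 CPM in the CCI rats, so both CCI rats were above both naïve rats. Mybpc1, a myosin-binding protein of slow fibers, was at 1.19 and 1.44 CPM in the naïve rats and 12.6 and 14.1 CPM in the CCI rats. Car3, a carbonic anhydrase of muscle and fat, was at 2.05 and 2.45 CPM in the naïve rats and 22.8 and 22.7 CPM in the CCI rats. Actn3, of fast fibers, was at 1.4 and 6.2 CPM in the naïve rats and 21 and 24.2 CPM in the CCI rats, so naïve replicate 2 was above naïve replicate 1, and its call was lost without CCI replicate 1 (log2 fold change 2.68) or CCI replicate 2 (2.47). With naïve 1, naïve 2, CCI 1 or CCI 2 left out, 7, 7, 3 and 3 muscle genes were called. The fat genes Fabp4 and Adipoq were also called up. Fabp4 was at 0.211 and 0.205 CPM in the naïve rats and 3.48 and 3.1 CPM in the CCI rats and Adipoq at 0.536 and 0.448 CPM in the naïve rats and 1.75 and 1.51 CPM in the CCI rats, the latter lost without CCI replicate 1 (log2 fold change 1.62) or CCI replicate 2 (1.83). Of 5 smooth muscle and pericyte genes, 3 were upregulated, among them Acta2 at 27.5 and 31.5 CPM in the naïve rats and 40.3 and 44.9 CPM in the CCI rats, a call that was lost without naïve replicate 1 (log2 fold change 0.44), CCI replicate 1 (0.62) or CCI replicate 2 (0.46), the last leaving 1 of the 3 calls. Pdgfrb, also in this list, was downregulated. Skeletal muscle and fat genes moved with the groups, and their part in the other results was not tested. The summed level of the 7 muscle genes was under 110 CPM in every library. It leaves out the listed muscle genes without a symbol, so it does not measure all muscle RNA.

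The red cell genes followed 1 library rather than the groups. Hbb, a beta globin, was at 54.7 and 552 CPM in the naïve rats and 105 and 78.5 CPM in the CCI rats, and Alas2, a heme synthesis enzyme of red cell precursors, was at 1.49 and 22.7 CPM in the naïve rats and 3.68 and 3.56 CPM in the CCI rats. None of the 8 genes was called in the full fit. All 8 were called down without naïve replicate 1, and 5 were called up without naïve replicate 2, so the direction was set by the choice of naïve rat. Ngp, a neutrophil granule gene, was at 0.0766 and 2.09 CPM in the naïve rats and 0.363 and 0.23 CPM in the CCI rats, and Cd79b, a B cell gene, at 0.0766 and 1.38 CPM in the naïve rats and 0.346 and 0.46 CPM in the CCI rats, both highest in that library. The globin genes are near copies of each other, so their separate counts are uncertain.

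**Figure D4:**
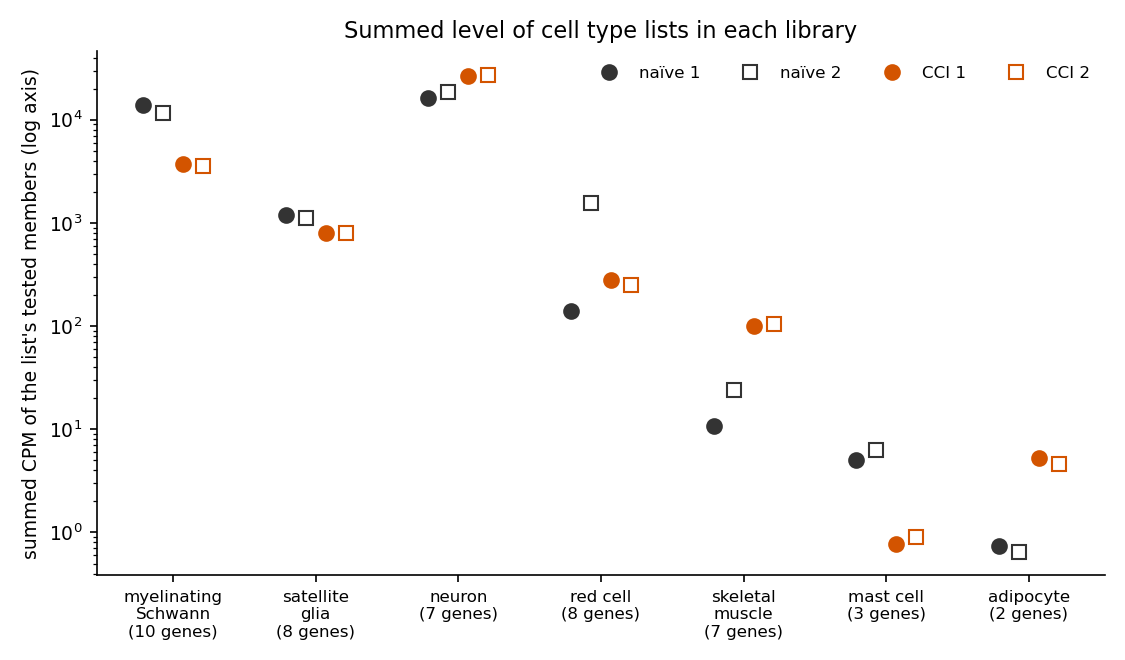
Summed CPM (log axis) of the tested members of 7 cell type lists (horizontal axis, with the number of genes) in each library, with naïve rats in black, CCI rats in orange, filled circles for replicate 1 and open squares for replicate 2. The red cell sum of 1556 CPM in naïve replicate 2 stands apart, and the muscle, fat and mast cell sums separate the groups at low levels.

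None of 19 subunits of the respiratory chain and ATP synthase was called, with a median log2 fold change of 0.17, and Atp5b, an ATP synthase subunit, was at 1188 and 1222 CPM in the naïve rats and 1576 and 1626 CPM in the CCI rats. One subunit was called up without naïve replicate 2. Of 6 proteasome subunits, Psmd6 at 118 and 122 CPM in the naïve rats and 191 and 188 CPM in the CCI rats and Psmd14 at 90.5 and 98.5 CPM in the naïve rats and 134 and 133 CPM in the CCI rats were upregulated, the latter at a log2 fold change of 0.50, right at the threshold, and not called without naïve replicate 1 (0.45). Of 5 cell cycle genes, 3 were downregulated, among them Ccnd1, the D-type cyclin, at 144 and 133 CPM in the naïve rats and 80.1 and 73.8 CPM in the CCI rats, and 1, 2, 1 and 1 were called with naïve 1, naïve 2, CCI 1 or CCI 2 left out. Cdkn1a, a cyclin-dependent kinase inhibitor induced by damage, was at 6.83 and 7.67 CPM in the naïve rats and 6.81 and 7.66 CPM in the CCI rats, so the group means were nearly equal, with an SE of 0.13 on the log2 fold change. Of 2 small heat shock genes, Hspb2 fell from 19.3 and 18.5 CPM to 7.83 and 8.45 CPM, and Hspb6 was at 15.7 and 14.8 CPM in the naïve rats and 14.6 and 15 CPM in the CCI rats and was not called.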

How the data were processed

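The authors made strand-specific poly(A) libraries, sequenced them as paired ends in 2 batches, aligned the reads to rn6 (CASAVA 1.8.2 and HISAT2 in the submitters' processing notes), removed ribosomal RNA reads and counted reads per Ensembl gene. The deposited values are these raw counts of 32623 genes, without normalization. The batch of each library was not given in the sources used here.

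Of the 8 columns, the 4 male ones were fitted with edgeR 4.0.16 in R 4.3.3 (filterByExpr with minimum count 10 and minimum total 15, TMM, glmQLFit and glmQLFTest), with the Benjamini-Hochberg method over 16685 genes. An SE was taken as the absolute log2 fold change over the root of its F statistic. The scripts were tested on simulated data. DESeq2 1.42.0, other normalizations, filters and thresholds, the replicate block and each library left out were alternatives. Totals ran from 49865883 to 60818457 counts per library. At that depth counting error matters for the genes with the fewest counts, such as Vip in naïve rats with 14 and 9 counts.

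Symbols for 1961 identifiers came from the study's own lists. Members and gene lists were chosen with earlier results of these data known. Genes were named if they were fixed anchors of a list, the member of a list with the largest called change in a direction (mean log2 CPM of at least 1) or its highest level, or among the 8 largest changes and 5 smallest p per direction called with and without the block and without overlap. Other genes given were chosen after their values were seen. Promoters are RefSeq's, GRCr8. No test of gene lists as sets was run. A list of ribosomal proteins had no member with a symbol. One gene is left out of the text.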

Additional observations from a re-analysis of the deposited data

How the results depend on the processing

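Counts of calls moved most with the threshold and the libraries, and less with the tool or the scaling. DESeq2, DESeq2 size factors, upper-quartile scaling, both other filters, and the filter or the fit over all 8 libraries gave 1422 to 1590 upregulated and 1951 to 2272 downregulated genes. Without the size threshold 3345 genes were up and 3144 down, and glmTreat against a log2 fold change of 0.5 left 343 up and 634 down. Leaving out 1 library gave 968 to 1659 upregulated and 1003 to 2023 downregulated genes. Of 1542 values of named genes under the alternatives, 1444 kept their direction and side of the threshold, 63 lost a call, 21 gained one and 14 changed direction, all 14 in 9 genes with no call in the full fit.

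With each library left out in turn, the log2 fold change ranged from -2.64 to 1.27 for Alas2, -2.58 to 0.74 for Hbb, -2.30 to 0.52 for Hbb-b1, -2.79 to 1.92 for Ngp, -1.24 to 1.44 for Spib, -1.77 to 2.35 for Cd79b, -0.18 to 0.39 for Mx2, -0.085 to 0.085 for Cdkn1a and -0.085 to 0.0096 for Hspb6. For the blood and immune genes Alas2, Hbb, Hbb-b1, Ngp, Spib and Cd79b, the lowest value came without naïve replicate 1 and the highest without naïve replicate 2. Cdkn1a was also at 0.0035 in DESeq2, 0.0091 with no filter on low counts and 0.0045 in DESeq2 with the replicate block, and Cd79b at 0.10 in DESeq2 with the block. Alas2 was called up without naïve replicate 2, the library rich in blood genes, and Alas2, Hbb, Hbb-b1 and Ngp were called down without naïve replicate 1. Mx2 was called under none of these. The causes were not tested.

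The replicate numbers are shared by the groups in the labels, with no word on a common batch. Deviations of log2 CPM from the group mean correlated across genes with r = 0.761 between rats of the same number, a hint from the data with only 2 pairs. With the replicate block, edgeR called 1797 genes up and 2681 down, and 1523 and 2140 of the calls without it were among them. The block lowered the common dispersion from 0.0465 to 0.00606. It ended or turned no call of the genes in the lists, and it added calls for 3 of them, Cacna1g (down), Gabra4 (up) and Tnni2 (up). Depth limits the genes with few counts in a group, such as Vip, Crh, Ngp and Cd79b.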

Other observations

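A set of 519 genes differed over 2-fold between the rats numbered 1 and 2 in the same direction in both groups. In 463 of them replicate 2 was above replicate 1, in 56 it was below, and 1 further gene differed over 2-fold in opposite directions. None of the 519 had a symbol here, none was called between CCI and naïve rats without the block, and 123 were called with it. The first principal component of log2 CPM held 51.3% of the variance and the second 42.7%. On the first, naïve 1, naïve 2, CCI 1 and CCI 2 scored -61.4, -12.9, 17.5 and 56.9. On the second they scored 15.4, -55.7, 52.3 and -12.1. Both components thus differed with the group and with the replicate number. No explanation of the difference between replicate numbers was tested.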
